A study of Mus musculus with 9 samples.

Results

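The Notch pathway was followed across sorted cells of the newborn mouse retina through 36 genes listed by their known roles: receptors, ligands, target genes, the nuclear complex, modulators and the proteases that cut the receptor. Of these, 35 were measured among 18193 genes, through 71 probe sets, and Maml3 is not analysed here because no probe set was annotated to it alone. A gene with several probe sets was represented by the one with the highest mean over the 9 arrays, and 26 of the 35 genes had several. The signals are log2 values after RMA, a background correction and normalization of Affymetrix arrays, so a difference of 1 is a 2-fold difference. All values below are such log2 signals or differences between group means of them unless a fold is named.

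RNA came from 3 groups of 3 replicates, all on a C57BL/6J-129/Ola background. Pups of the rhoEGFP line, labelled rhoGFP, carry a GFP reporter of rod photoreceptors. Their retinae at postnatal day 4 (P4) were sorted into GFP-positive cells (rhoGFP-positive) and the remaining GFP-negative cells (rhoGFP-negative). Pups of the pNestin-GFP line, labelled nestinGFP, carry a GFP reporter driven by the promoter of nestin, an intermediate filament of neural progenitors, and gave GFP-positive cells at postnatal day 0 (P0). Every replicate pooled retinae of 6 to 8 mice. The 2 rhoGFP fractions come from 1 line and age, whereas reporter line and age differ together in every comparison with the nestinGFP-positive cells and cannot be told apart there. The rhoGFP-negative fraction is whatever cells lacked the reporter and is not 1 cell type.

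Notch receptors are membrane proteins that are activated by Delta or Jagged ligands on a neighbouring cell. Binding lets the protease Adam10 and then the gamma-secretase complex cut the receptor, and the released intracellular domain enters the nucleus, joins the DNA-binding protein Rbpj and the coactivators of the Mastermind-like (Maml) family, and switches on targets such as the Hes and Hey repressors. In the developing retina the pathway is known for keeping progenitors undifferentiated, and loss of Notch1 is known to release progenitors towards photoreceptor fates. Cells that leave the cycle to become neurons typically express Delta ligands while progenitors around them express Hes1 and Hes5.

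The labels were checked against marker genes. Nrl, the transcription factor that sets the rod fate, was at 13.58, 13.67 and 13.68 on rhoGFP-positive, 12.72, 12.82 and 12.21 on rhoGFP-negative and 11.68, 11.18 and 10.45 on nestinGFP-positive arrays. All 10 measured rod genes were called higher in the rhoGFP-positive fraction than in each other group, but Nrl was also at a high signal in the others, and its nestinGFP-positive values were the lowest. Nes, which encodes nestin, was at 7.74 to 8.28 in the rhoGFP-positive, 8.38 to 8.96 in the rhoGFP-negative and 8.45 to 8.70 in the nestinGFP-positive cells, and it was not called in any comparison. The rhoGFP-positive minus nestinGFP-positive difference was -0.55 ± 0.18 (adjusted p = 0.0406, but under 2-fold); 1 of its 2 further probe sets, at a low signal, was called lower in this comparison (-1.11). Between the rhoGFP-negative and nestinGFP-positive cells there was a difference of 0.00 (rhoGFP-negative minus nestinGFP-positive, 95% interval -0.41 to 0.41), an interval that leaves out a 2-fold difference. Array medians over all probe sets ran from 6.08 to 6.17. Over the 18193 genes tested they ran from 6.92 to 6.97 on rhoGFP-positive, 7.09 to 7.28 on rhoGFP-negative and 7.24 to 7.34 on nestinGFP-positive arrays. The correlation between arrays ran from 0.979 to 0.994 within groups and from 0.922 to 0.991 between them, and the median standard error of a difference was 0.14. The actin control, whose 3' minus 5' difference is a sign of RNA integrity, averaged 0.91 ± 0.064 (SD, n = 3) over rhoGFP-positive, 0.65 ± 0.021 over rhoGFP-negative and 0.67 ± 0.30 over nestinGFP-positive arrays. The 18S ribosomal control stood at 13.6, 13.6 and 12.1 on the arrays numbered 1, against 9.65 to 10.4 on the 6 others.

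The comparison within the P4 retina asks which Notch genes differ between cells that carry the rod reporter and the cells around them. Most receptors, Delta ligands and Hes, Hey and Nrarp targets were lower in the rhoGFP-positive cells, and the ligand Jag1 alone was called higher. In all, 17 of the 35 genes were called lower and 1 higher (limma; the threshold was an adjusted p under 0.05 together with a 2-fold difference or more). That is 51.4%, against 10.9% of all genes tested, 7.32% being lower and 3.61% higher. The median difference of the 35 genes was -0.74, and that of all genes 0.01. On 23 of the 35 genes the 3 rhoGFP-positive values did not overlap the 3 rhoGFP-negative ones, which was so for 38.2% of all genes. The lower genes were 3 of 4 receptors, 4 of 6 ligands, 6 of 7 targets and 4 of 10 modulators. None of the 3 nuclear complex genes and none of the 5 protease genes was called, although some of them reached an unadjusted p below 0.05, as 21 of the 35 genes did. With bulk RNA, a lower signal from fewer cells that express a gene cannot be told apart from one with less RNA per cell.

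Against the nestinGFP-positive cells of P0 the rhoGFP-positive cells had 16 of the 35 genes lower and 1 higher, which is 48.6%, where 15.6% of all genes were called, 10.5% lower and 5.06% higher. The median difference was -0.60, against 0.06 for all genes, and the arrays did not overlap on 23 genes, as for 47.8% of all genes. Both comparisons share the 3 rhoGFP-positive arrays and are therefore not independent of each other. By role, 4 of 4 receptors, 3 of 6 ligands, 6 of 7 targets and 3 of 10 modulators were lower, with median differences of -1.52 for the receptors and -2.01 for the targets, and again no gene of the nuclear complex or the proteases was called. The rhoGFP-positive group had the lowest mean of the 3 groups for 24 genes and the highest for 6.

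**Figure D1:**
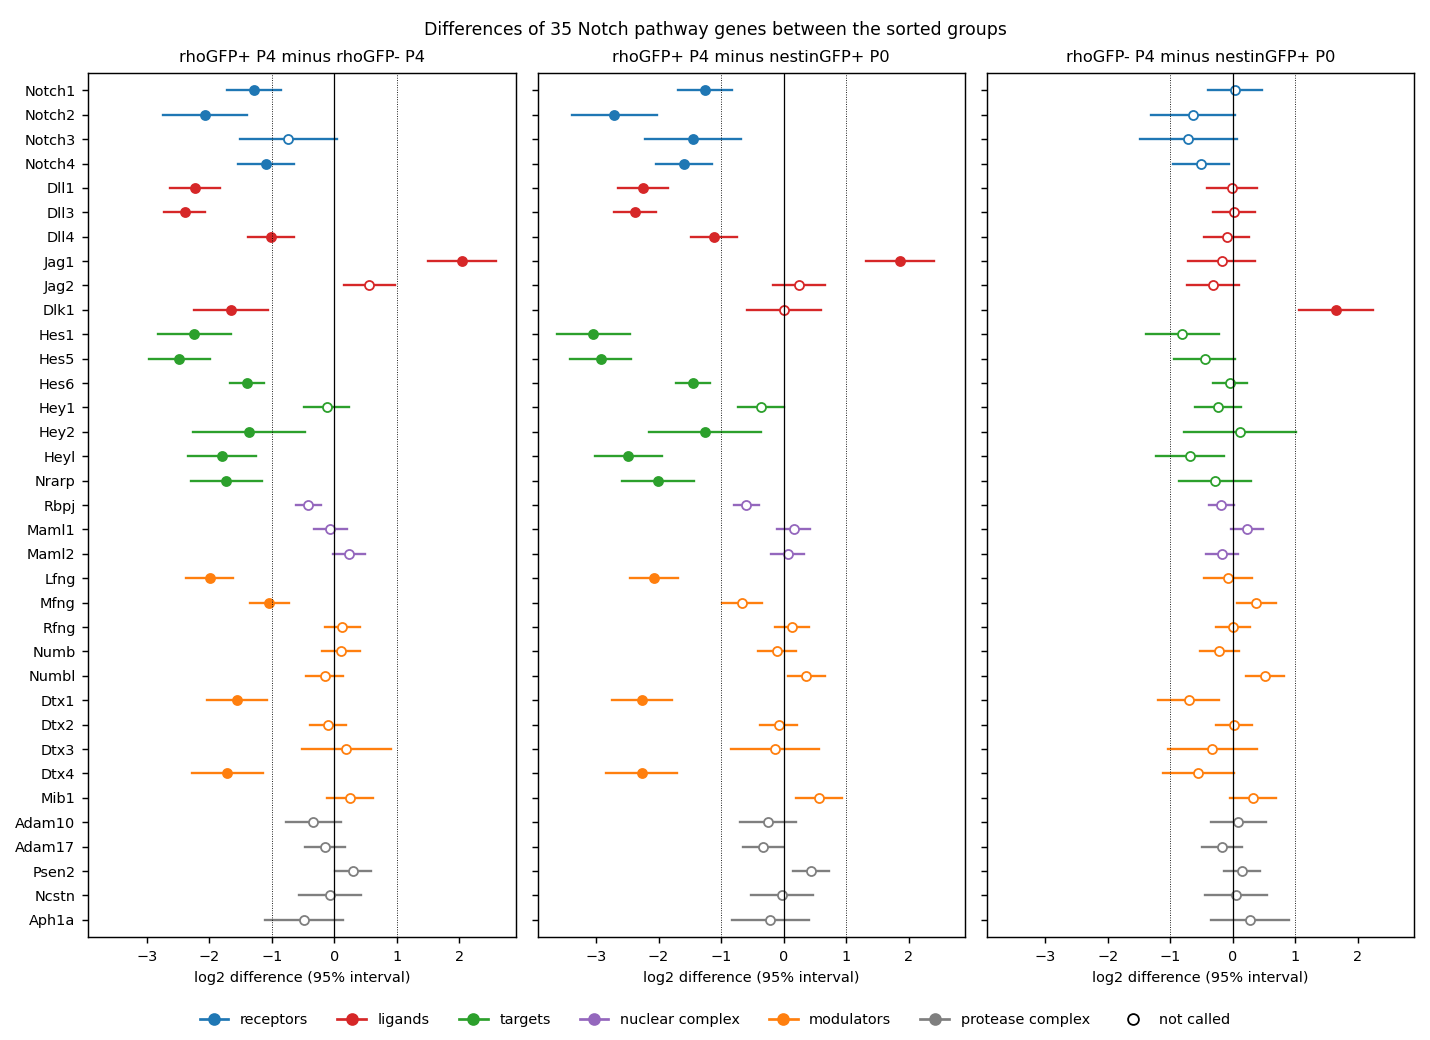
Log2 difference of each of the 35 Notch pathway genes in the 3 comparisons, with its 95% interval; filled points are called (adjusted p under 0.05, and beyond the dotted lines at -1 and 1), open points are not, and colours mark the roles. In the left and middle panels 17 and 16 genes lie called to the left of 0 and Jag1 to the right, while in the right panel Dlk1 is the single filled point.

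Notch1, the receptor best known in retinal progenitors, was at 10.89, 11.22 and 11.55 on the rhoGFP-positive arrays, 12.29, 12.38 and 12.85 on the rhoGFP-negative arrays and 12.60, 12.39 and 12.44 on the nestinGFP-positive arrays. All 3 rhoGFP-positive values lay below the 6 others, which overlapped each other. The rhoGFP-positive cells were 2.44-fold lower than the rhoGFP-negative cells (difference -1.29 ± 0.19, SE; limma adjusted p = 0.000841) and 2.39-fold lower than the nestinGFP-positive cells (-1.26 ± 0.19, adjusted p = 0.000626). The second Notch1 probe set had smaller differences of -0.99 and -0.81 and was not called. The rhoGFP-positive signals of the first probe set stayed far above 6.26, the 40th percentile of mean signal over all genes.

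Notch2, the close relative of Notch1, was at 5.22, 4.94 and 5.87 in rhoGFP-positive, 7.49, 6.82 and 7.90 in rhoGFP-negative and 8.27, 7.75 and 8.13 in nestinGFP-positive replicates. The rhoGFP-positive values were low on all 3 arrays, and those of the other groups overlapped. The difference was -2.06 ± 0.30 (adjusted p = 0.000738) to the rhoGFP-negative and -2.71 ± 0.30 (adjusted p = 8.51e-05) to the nestinGFP-positive cells. The rhoGFP-positive mean lies below that percentile, and the table has no detection calls, so no fold is given for Notch2 or for other genes with a mean below that line. Its dimmer second probe set gave 0.21 and 0.37 without a call, and with the mean of both probe sets the differences were -0.93, short of the minimum of 1, and -1.17, still called.

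Notch3, a receptor known in mural cells and in progenitors, had signals of 5.33, 5.55 and 5.78, 6.03, 6.14 and 6.71 and 6.43, 6.67 and 7.91 in the same order of groups. The rhoGFP-positive values were below all others, and nestinGFP-positive replicate 3 stood above its group. The difference to the rhoGFP-negative cells was -0.74 ± 0.35 and was not called (adjusted p = 0.17), and that to the nestinGFP-positive cells was -1.45 ± 0.35 (adjusted p = 0.00862). Without nestinGFP-positive replicate 3 the latter was -0.996 and no longer called, and the second probe set gave -0.31 and -0.87 without a call. Notch4, a receptor known mainly in endothelium, was at 6.15, 5.85 and 5.87, 7.13, 6.75 and 7.26 and 7.58, 7.92 and 7.17. Its rhoGFP-positive values were the 3 lowest, with differences of -1.08 ± 0.20 (adjusted p = 0.00309) and -1.60 ± 0.20 (adjusted p = 0.000182). The call against the rhoGFP-negative cells was lost without rhoGFP-negative replicate 3 (-0.98). Averaging its 3 probe sets ended both Notch4 calls (-0.37 and -0.58), since the other probe sets gave -0.11 and 0.09 in the first comparison and -0.04 and -0.10 in the second comparison.

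Since Notch3, Notch4 and some ligands are known in vessels, vessel markers were read beside them. The endothelial genes Cdh5 (4.18 to 4.94) and Pecam1 (3.92 to 4.61) were at a low signal on all 9 arrays, and neither was called in any comparison, the largest difference being 0.27. Of 12 endothelial genes, Kdr (difference -2.44) and Cldn5 (-1.55), named here after their values were seen, were lower in the rhoGFP-positive cells and the other 10 were not called. The summed signal of the list ran from 9.86 to 10.18 on rhoGFP-positive, 11.53 to 11.99 on rhoGFP-negative and 11.60 to 11.95 on nestinGFP-positive arrays (log2 of the sum). Such a sum is weighted to the brightest genes. The median of the endothelial list ran from 5.01 to 5.30, 4.94 to 5.24 and 4.86 to 5.15 in the same order of groups. None of 6 mural genes was called, and their summed signal ran from 8.14 to 8.49 over all arrays. The part of vessel cells in the Notch3, Notch4 and Dll4 differences was not tested.

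All 3 Delta ligands were lower in the rhoGFP-positive cells. Dll1, which newborn neurons and neurogenic progenitors present to their neighbours, was at 7.84, 7.95 and 8.23 in rhoGFP-positive, 10.06, 10.05 and 10.59 in rhoGFP-negative and 10.49, 10.07 and 10.20 in nestinGFP-positive replicates. The 3 rhoGFP-positive values were lowest, and the other groups overlapped almost wholly. Dll1 was 4.68-fold (-2.23 ± 0.18, adjusted p = 2.18e-05) and 4.74-fold lower (-2.24 ± 0.18, adjusted p = 1.23e-05) in the rhoGFP-positive cells. Dll3, a Delta protein that acts inside the cell and dampens Notch signalling, was at 8.14, 8.39 and 8.54, 10.46, 10.85 and 10.94 and 10.77, 10.66 and 10.77. It was 5.26-fold lower than in the rhoGFP-negative cells (-2.39 ± 0.15, adjusted p = 6.29e-06), and the difference to the nestinGFP-positive cells was -2.38 ± 0.15. In rhoGFP-negative minus nestinGFP-positive cells the differences of Dll1 and Dll3 were -0.02 (95% interval -0.42 to 0.38) and 0.02 (-0.32 to 0.35), so a 2-fold difference lies outside both intervals.

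Dll4, a Delta ligand of vessels that retinal precursors also use, was at 6.55, 6.82 and 6.80, 7.50, 7.62 and 8.08 and 7.78, 7.72 and 8.01, with the rhoGFP-positive values again the 3 lowest. Its differences of -1.01 ± 0.16 (adjusted p = 0.00132) and -1.11 ± 0.16 (adjusted p = 0.000457) sat at the minimum of 1. The first call was lost without rhoGFP-negative replicate 3 (-0.84), without rhoGFP-positive replicate 1 (-0.92) and after centring the arrays on a common median (-0.99). The second Dll4 probe set was lower too, by differences of -1.72 and -1.92.

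Jag1, a Jagged ligand, went the other way. It was at 9.0, 8.53 and 7.95 on the rhoGFP-positive arrays, 6.24, 6.73 and 6.36 on the rhoGFP-negative and 6.84, 6.54 and 6.50 on the nestinGFP-positive arrays. Each rhoGFP-positive value exceeded each of the 6 others, although the rhoGFP-positive replicates differed among themselves by about as much as replicate 3 stood above the rest. Jag1 was 4.14-fold higher than in the rhoGFP-negative cells (2.05 ± 0.24, adjusted p = 0.000211) and 3.65-fold higher than in the nestinGFP-positive cells (1.87 ± 0.24, adjusted p = 0.000228). A second probe set rose as well (1.56 and 1.45), and the dimmest, at a mean signal of 5.11, gave 0.32 and 0.59 without a call; with the mean of the 3 the difference between the rhoGFP fractions was 1.31, still called. Jag2, the other Jagged ligand, was at 7.51, 8.04 and 7.80, 7.20, 7.34 and 7.12 and 7.19, 7.59 and 7.84, with a difference of 0.56 ± 0.18 between the rhoGFP fractions that was not called (adjusted p = 0.0519).

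Dlk1, a Delta-like protein without the domain that activates Notch in the usual way, had a pattern of its own. Its signals were 5.63, 6.05 and 5.95, 7.32, 8.17 and 7.10 and 6.20, 5.77 and 5.66 in the order above, so the 3 rhoGFP-negative arrays were high and the rhoGFP-positive and nestinGFP-positive arrays were low and overlapped. The rhoGFP-positive minus rhoGFP-negative difference was -1.65 ± 0.26 (adjusted p = 0.00131), the rhoGFP-negative minus nestinGFP-positive difference 1.65 ± 0.26 (adjusted p = 0.0217), and the rhoGFP-positive minus nestinGFP-positive difference 0.00 (95% interval -0.59 to 0.59). Its second probe set, at a mean signal of 5.02, gave -0.18 and 0.28 in the first and second of these and was not called. Both calls rest on 1 probe set of the type that can match more than 1 transcript, and both were lost when such probe sets were left out (-0.18 and 0.28) and with the mean of both probe sets (-0.91 and 0.97).

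**Figure D2:**
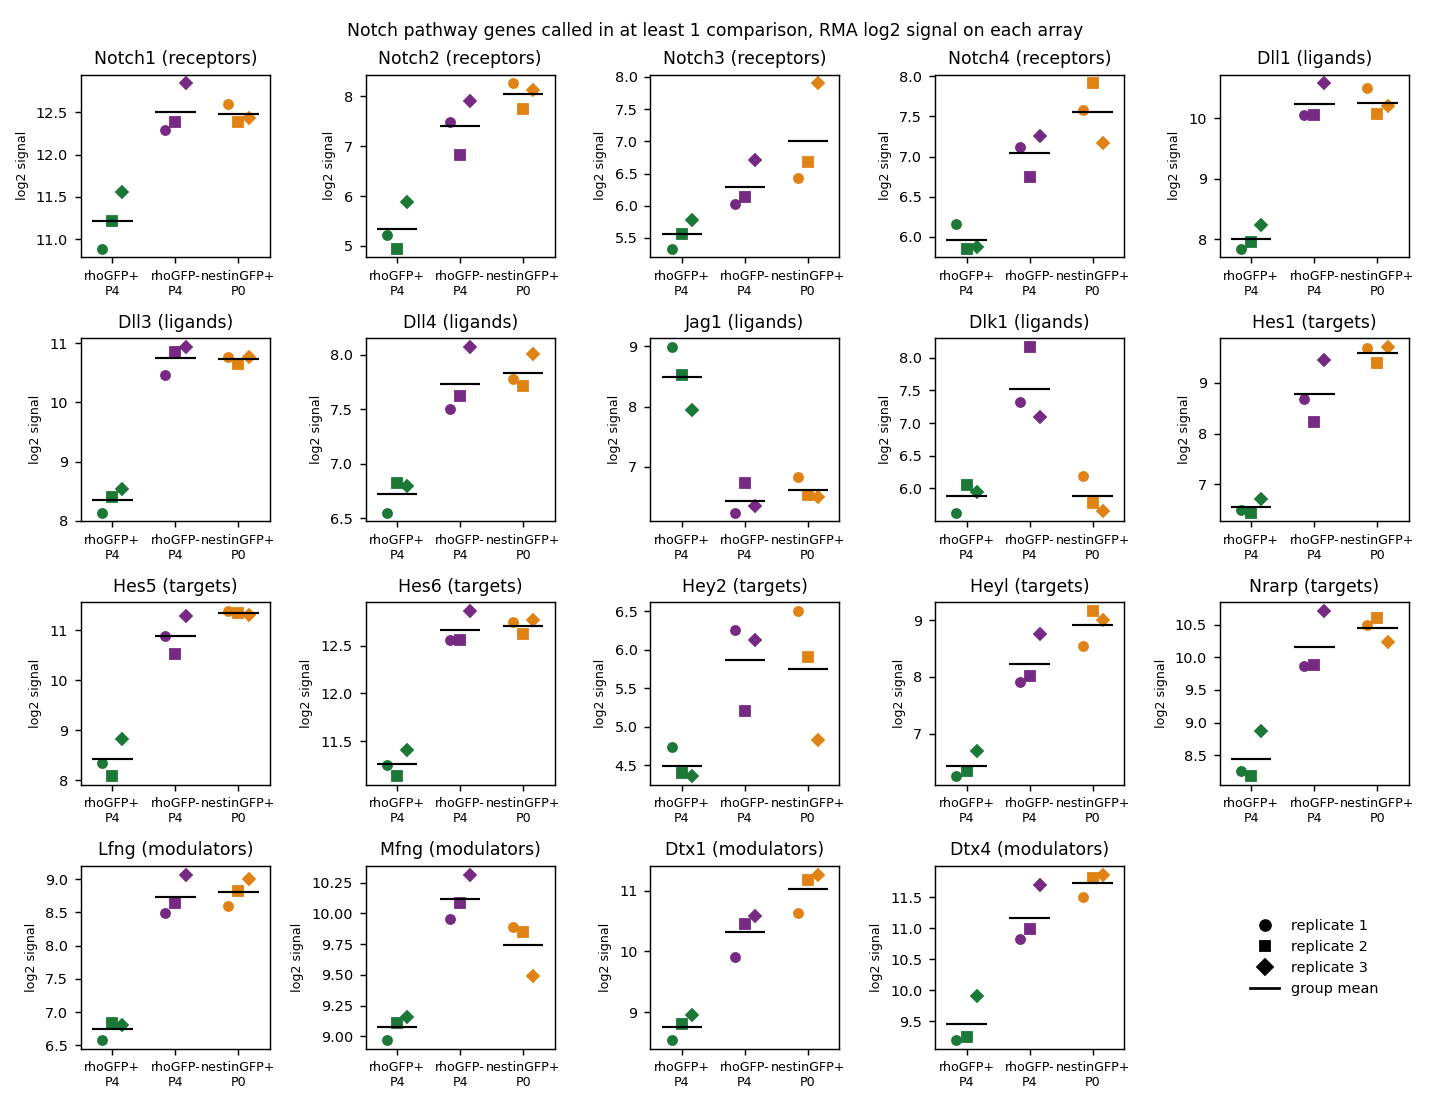
RMA log2 signal of the 19 Notch pathway genes called in at least 1 comparison, on each of the 9 arrays; symbols mark the replicate number, bars the group means, and each panel has its own vertical axis that does not start at 0. For 15 genes the rhoGFP-positive points lie lowest with a call against both other groups, Jag1 lies highest there, and Dlk1 is high in the rhoGFP-negative group alone.

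Target genes are the usual readout of the pathway, and 6 of the 7 genes listed as targets were lower in the rhoGFP-positive cells than in each other group. The 6 include Hes6, a family member known to oppose Hes1, so the count describes the list and not Notch activity. Hes1, the repressor that keeps progenitors undifferentiated, was at 6.49, 6.45 and 6.72 in rhoGFP-positive, 8.69, 8.22 and 9.45 in rhoGFP-negative and 9.68, 9.39 and 9.71 in nestinGFP-positive replicates. The rhoGFP-positive values were more than 1 unit below all others, and only rhoGFP-negative replicate 3 reached the nestinGFP-positive range. Hes1 was 4.71-fold lower than in the rhoGFP-negative cells (-2.24 ± 0.26, adjusted p = 0.000189) and 8.24-fold lower than in the nestinGFP-positive cells (-3.04 ± 0.26, adjusted p = 1.75e-05), the largest difference of any of the 35 genes in the 3 comparisons. Hes5, which acts beside Hes1 in progenitors, was at 8.35, 8.08 and 8.83, 10.88, 10.52 and 11.28 and 11.39, 11.33 and 11.31. The 3 groups did not overlap. Hes5 was 5.56-fold lower than in the rhoGFP-negative cells and 7.6-fold lower than in the nestinGFP-positive cells (-2.93 ± 0.22, adjusted p = 8.19e-06), and its second probe set gave -2.33 and -2.69.

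Hes6, a family member that promotes differentiation and is known to oppose Hes1, was lower in the same cells. It was at 11.25, 11.13 and 11.41, 12.56, 12.56 and 12.87 and 12.75, 12.62 and 12.76, with the rhoGFP-positive values below all others and the rest overlapping. The differences were -1.40 ± 0.12 (adjusted p = 3.32e-05) and -1.45 ± 0.12 (adjusted p = 1.7e-05), and its second probe set gave -1.54 and -1.63. Hes6 differed by -0.05 between rhoGFP-negative and nestinGFP-positive cells (95% interval -0.32 to 0.23).

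The Hey repressors did not move as one. Heyl was at 6.25, 6.34 and 6.70, 7.90, 8.02 and 8.75 and 8.55, 9.17 and 9.0, lowest on the rhoGFP-positive arrays, and was 3.48-fold lower than in the rhoGFP-negative cells (-1.80 ± 0.24, adjusted p = 0.000457) and 5.59-fold lower than in the nestinGFP-positive cells (-2.48 ± 0.24). Its other 2 probe sets gave -1.39 and -0.87 in the first comparison, the last of them not called, and -1.90 and -1.21 in the second, both called. Hey1 was at 8.07 to 8.30, 8.18 to 8.53 and 8.32 to 8.87 over the replicates of the 3 groups and was not called, with differences of -0.12 (95% interval -0.48 to 0.24) and -0.36 (-0.72 to 0.00), so its intervals leave out a 2-fold difference. Hey2 was at a low signal in all groups, 4.74, 4.39 and 4.35, 6.26, 5.20 and 6.13 and 6.50, 5.90 and 4.83, and the spread within the last group was wide. Its differences of -1.37 ± 0.40 (adjusted p = 0.0325) and -1.25 ± 0.40 (adjusted p = 0.0345) passed the threshold on all 9 arrays. The first call was lost when any 1 of 6 arrays was left out and the second when any 1 of 5 was, with adjusted p values of 0.0508 to 0.106 and of 0.0502 to 0.11 in those fits.

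Nrarp, a direct target that feeds back on the Notch nuclear complex, was at 8.25, 8.17 and 8.88, 9.87, 9.89 and 10.72 and 10.50, 10.60 and 10.24. Its rhoGFP-positive values were the 3 lowest, and rhoGFP-negative replicate 3 was the highest of all 9. Nrarp was 3.3-fold lower than in the rhoGFP-negative cells (-1.72 ± 0.25, adjusted p = 0.000801) and 4.03-fold lower than in the nestinGFP-positive cells (-2.01 ± 0.25, adjusted p = 0.000195), and its second probe set, at -1.39 and -1.74, was called too.

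Start-site windows of these genes were searched for letters that Rbpj is known to bind. Windows from 250 bases before to 50 after the start were read from RefSeq (GRCm38.p6) for 29 of the 36 genes, 36 windows in all. Hes1, Hey1, Heyl, Mfng, Dtx3, Dtx4 and Mib1 were not among them. A chromosome was skipped for the listed genes but not for the shares over all windows given next. The core TGGGAA, on either strand, occurs in 25.6% of the 32851 windows of the table and at least 2 times in 3.79%; the longer CGTGGGAA, which contains the core, occurs in 0.734% and at least 2 times in 0.0122%. The core was in 10 of the 36 windows read, against 25.6% of all windows. By gene, it was in windows of 9 of the 29 genes: none of 4 receptors or 6 ligands, 2 of 4 targets (Hes5 and Hey2), 3 of 4 nuclear complex genes (Rbpj, Maml2 and Maml3), 2 of 6 modulators (Lfng and Dtx2) and 2 of 5 protease genes (Psen2 and Aph1a). A match describes the letters in these windows and does not show binding, and Nrarp and Hes6, which have none here, were lower as well. The core occurred 2 times in 4 of the 36 windows. Of these, 1 belongs to Rbpj, which was not called in any comparison. The windows of the 3 lower genes with 2 copies each follow, 5' to 3' on the strand of the gene, with the core in capitals: Hes5 at chr4:154960673-154960972 (plus strand), Hey2 at chr10:30842734-30843033 (minus strand) and Lfng, a modulator described below, at chr5:140607091-140607390 (plus strand).
Hes5: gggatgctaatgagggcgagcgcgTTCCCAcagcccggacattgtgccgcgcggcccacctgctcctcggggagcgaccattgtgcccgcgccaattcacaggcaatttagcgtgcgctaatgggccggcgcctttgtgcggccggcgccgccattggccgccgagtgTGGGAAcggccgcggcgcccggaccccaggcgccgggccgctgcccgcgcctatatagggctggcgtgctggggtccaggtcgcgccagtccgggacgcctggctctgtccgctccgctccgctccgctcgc
Hey2: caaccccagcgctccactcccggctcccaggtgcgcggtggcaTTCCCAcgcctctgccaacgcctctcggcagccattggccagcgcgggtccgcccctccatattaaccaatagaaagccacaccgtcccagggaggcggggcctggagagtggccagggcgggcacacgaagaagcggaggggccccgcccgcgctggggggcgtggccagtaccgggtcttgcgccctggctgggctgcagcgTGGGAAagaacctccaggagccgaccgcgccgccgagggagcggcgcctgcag
Lfng: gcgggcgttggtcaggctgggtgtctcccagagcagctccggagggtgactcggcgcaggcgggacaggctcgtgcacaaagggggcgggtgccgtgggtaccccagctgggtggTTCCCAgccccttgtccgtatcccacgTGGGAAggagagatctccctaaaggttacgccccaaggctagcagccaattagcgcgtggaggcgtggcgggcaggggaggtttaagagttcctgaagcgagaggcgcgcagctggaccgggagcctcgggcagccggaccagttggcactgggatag

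Counted from the start site, with the first transcribed base as 1, the copies begin at -226 and -82 in Hes5, at -207 and -3 in Hey2 and at -135 and -108 in Lfng, in each gene 1 on either strand. Both copies in Hey2 and 1 in Lfng belong to the longer CGTGGGAA. The window of Jag1, the ligand that rose, has no Rbpj core. It holds 2 copies of CACGCG, a box that Hes repressors are known to bind, at -249 and -171, 1 on either strand; this box is in 9.27% of all windows and at least 2 times in 1.67%. It was in 8 of the 36 windows read, from 8 of the 29 genes (Notch2, Dll1, Dll4, Jag1, Jag2, Lfng, Rfng and Dtx1). Jag1 was the single gene of these with 2 copies. Of these genes, Notch2, Dll1, Dll4, Lfng and Dtx1 were called lower between the rhoGFP fractions, and Jag2 and Rfng were not called. As with the Rbpj core, a match does not show binding, and a part of the box in the Jag1 difference was not tested. The Jag1 window at chr2:137116471-137116770 (minus strand) is shown because it belongs to the gene that differs in direction from the rest, with the box in capitals.
Jag1: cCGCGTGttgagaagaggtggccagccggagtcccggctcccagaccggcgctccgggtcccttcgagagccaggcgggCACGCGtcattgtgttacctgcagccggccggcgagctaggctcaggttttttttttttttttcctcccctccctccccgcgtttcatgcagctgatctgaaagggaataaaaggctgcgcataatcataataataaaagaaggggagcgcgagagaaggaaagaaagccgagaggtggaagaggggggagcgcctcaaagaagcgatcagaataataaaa

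No gene of the nuclear complex was called in any comparison. Rbpj, the DNA-binding protein of the pathway, was at 9.91, 9.78 and 9.80 on the rhoGFP-positive arrays and at 10.24 on all 3 rhoGFP-negative arrays. On the nestinGFP-positive arrays it was at 10.42, 10.44 and 10.42, so the 3 groups did not overlap. The 3 rhoGFP-negative values were identical to every deposited decimal and show no spread between replicates, and the small standard errors rest in part on them. The Rbpj differences of -0.41 ± 0.09 (adjusted p = 0.00685) and -0.60 ± 0.09 (adjusted p = 0.000492) passed the adjusted p but amount to 1.33-fold and 1.51-fold and were not called. The 2 further Rbpj probe sets gave -0.94 and -0.53 between the rhoGFP fractions, without a call. The coactivator Maml1 differed by -0.06 (95% interval -0.32 to 0.20) and 0.16 (-0.10 to 0.42). Maml2 stayed at 4.07 to 4.52 on all arrays, a low signal with no detection call.

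Among the modulators the fringe genes were split. Fringe enzymes add sugars to Notch and so change which ligands it answers to. Lunatic fringe (Lfng) was at 6.57, 6.84 and 6.80 in rhoGFP-positive, 8.49, 8.63 and 9.07 in rhoGFP-negative and 8.60, 8.82 and 9.01 in nestinGFP-positive replicates, with the first 3 values apart from the 6 others. It was 3.98-fold (-1.99 ± 0.17, adjusted p = 2.79e-05) and 4.2-fold lower (-2.07 ± 0.17, adjusted p = 1.37e-05), while its dim second probe set gave -0.34 and -0.61 without a call. With the mean of both, Lfng was still called, at -1.17 and -1.34. Manic fringe (Mfng) was at 8.97, 9.10 and 9.16, 9.95, 10.09 and 10.32 and 9.89, 9.85 and 9.49, and no 2 groups overlapped. It was lower than in the rhoGFP-negative cells (-1.04 ± 0.14, adjusted p = 0.000458), and its difference of -0.66 ± 0.14 to the nestinGFP-positive cells was under 2-fold. The Mfng call was lost without rhoGFP-negative replicate 3 (-0.94) or rhoGFP-positive replicate 1 (-0.99). Radical fringe (Rfng) was not called, at 0.13 (95% interval -0.15 to 0.41) and 0.13 (-0.15 to 0.41).

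The Deltex genes, which encode ubiquitin ligases that act on Notch, were split too. Dtx1 was at 8.53, 8.79 and 8.95, 9.91, 10.45 and 10.58 and 10.63, 11.17 and 11.27, and Dtx4 at 9.19, 9.25 and 9.91, 10.83, 10.98 and 11.69 and 11.49, 11.80 and 11.86. In both genes the rhoGFP-positive values were the 3 lowest, and in Dtx1 the nestinGFP-positive values were also above all rhoGFP-negative ones. Dtx1 was 2.94-fold lower than in the rhoGFP-negative cells (-1.55 ± 0.22, adjusted p = 0.000557) and 4.8-fold lower than in the nestinGFP-positive cells (-2.26 ± 0.22), and Dtx4 was 3.28-fold (-1.71 ± 0.25, adjusted p = 0.000807) and 4.81-fold lower (-2.27 ± 0.25). The second Dtx4 probe set was called lower as well (-1.03 and -1.40), whereas the second of Dtx1, at a mean signal of 5.39, gave -0.04 and 0.16, and with the mean of both Dtx1 fell short of the minimum between the rhoGFP fractions (-0.80) and was -1.05, still called, in the second comparison. Dtx2 and Dtx3 were not called, with -0.10 (95% interval -0.39 to 0.19) and 0.19 (-0.52 to 0.90) between the rhoGFP fractions.

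The remaining modulators act on the trafficking of receptor or ligand. Numb, an inhibitor that is handed unequally to daughter cells, differed by 0.11 (95% interval -0.20 to 0.42) between the rhoGFP fractions, and its relative Numbl by -0.15 (-0.45 to 0.15). Mib1, the ubiquitin ligase that primes ligands for uptake in the sending cell, was at 10.01 to 10.04 on the rhoGFP-positive, 9.55 to 10.06 on the rhoGFP-negative and 9.23 to 9.75 on the nestinGFP-positive arrays. Its difference to the nestinGFP-positive cells of 0.57 ± 0.16 (adjusted p = 0.022) was under 2-fold, and its further probe sets gave 0.65, not called, and 1.31, called higher at a mean signal of 5.14. Between the rhoGFP fractions the 3 Mib1 probe sets gave 0.25, 0.41 and 0.74, none of them called.

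No gene of the cutting machinery was called in any comparison. Adam10 and Adam17, which shed the receptor's outer part, differed between the rhoGFP fractions by -0.34 (95% interval -0.78 to 0.11) and -0.15 (-0.47 to 0.17). The gamma-secretase genes Psen2, Ncstn and Aph1a differed by 0.30 (0.01 to 0.58), -0.07 (-0.56 to 0.43) and -0.48 (-1.10 to 0.14). The interval of Aph1a reaches beyond a 2-fold difference and those of the other 4 do not. Against the nestinGFP-positive cells the 5 differences ran from -0.33 for Adam17 to 0.44 for Psen2, which passed the adjusted p (0.0241) but not the 2-fold minimum. The median over the 5 genes was -0.15 between the rhoGFP fractions, against -1.72 over the targets.

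**Figure D3:**
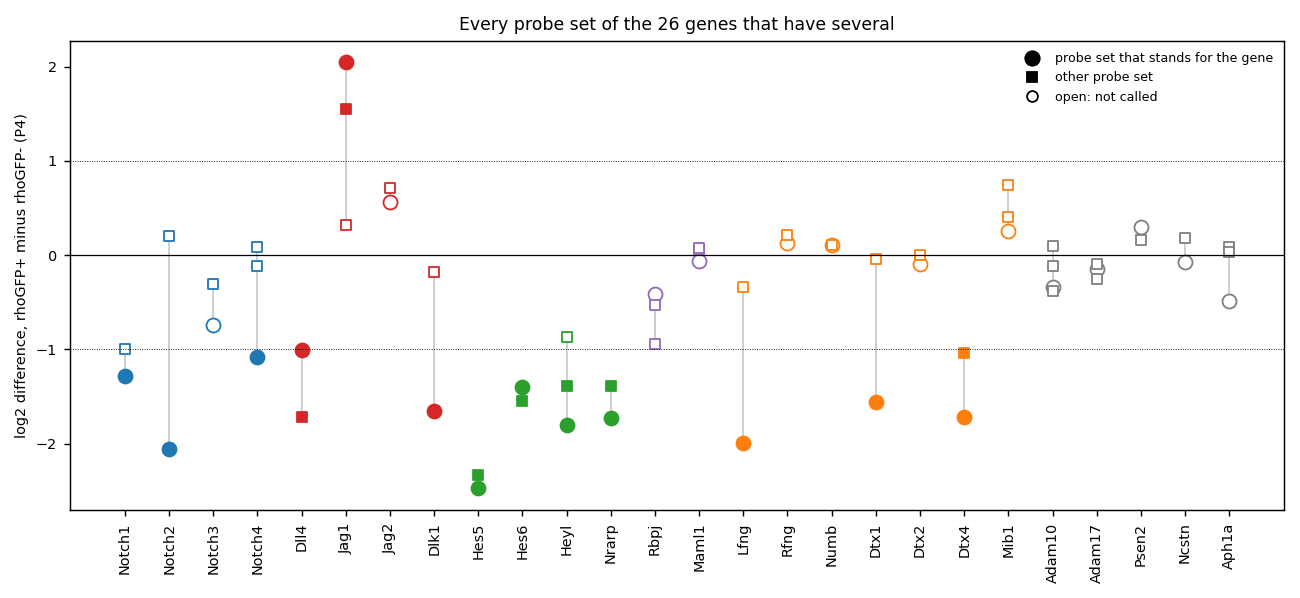
Log2 difference between the rhoGFP fractions (rhoGFP-positive minus rhoGFP-negative) for every probe set of the 26 Notch pathway genes that have several; large circles are the probe set that stands for the gene, squares the others, and open symbols are not called. In 8 genes the probe sets disagree in call, Jag1, Notch2 and Dlk1 among them, and in no gene are they called in opposite directions.

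The comparison of the rhoGFP-negative cells of P4 with the nestinGFP-positive cells of P0 sets the cells without the rod reporter beside cells with the progenitor reporter. Dlk1 was the single gene called (higher in the rhoGFP-negative cells) and none was called lower, which is 1 of 35, against 0.989% of all genes, 0.385% being higher and 0.605% lower. The median difference was -0.10, against 0.03 for all genes, and 26 of the 35 genes differed by less than 0.5. At an unadjusted p below 0.05 there were 7 genes. On 6 genes the arrays did not overlap, Dlk1, Hes5, Rbpj, Mfng, Dtx1 and Numbl, where 20.6% of all genes did not. The largest differences after Dlk1 were in Hes1 (-0.81 ± 0.26, 95% interval -1.39 to -0.23, adjusted p = 0.139), Notch3 (-0.71 ± 0.35), Dtx1 (-0.71 ± 0.22, adjusted p = 0.12) and Heyl (-0.68 ± 0.24), all lower in the rhoGFP-negative cells and none called. Numbl, at 8.94, 9.25 and 8.96 against 8.38, 8.65 and 8.58, differed by 0.51 ± 0.13 (adjusted p = 0.0783).

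Single arrays decided 2 calls here. Without rhoGFP-negative replicate 3, Hes1 was called lower (-1.14, adjusted p = 0.00842). The Dlk1 call was lost without rhoGFP-negative replicate 1, nestinGFP-positive replicate 2 or nestinGFP-positive replicate 3, where adjusted p values ran from 0.0621 to 0.0933.

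Other measured features moved with the Notch genes. Of 11 progenitor genes 9 were lower in the rhoGFP-positive cells than in each other group, and their summed signal ran from 12.51 to 13.02 there, from 13.99 to 14.63 on rhoGFP-negative and from 14.76 to 14.90 on nestinGFP-positive arrays (log2 of the sum). Of 10 cell cycle genes 8 and 10 were lower in the 2 comparisons, and their median signal was 7.44, 7.68 and 8.58 on the rhoGFP-positive, 9.36, 9.24 and 10.77 on the rhoGFP-negative and 10.97, 10.86 and 10.84 on the nestinGFP-positive arrays. The rhoGFP arrays numbered 3 were thus the highest of their groups in cell cycle signal, and they were also the highest of their groups in most of the 17 lower Notch genes, in 15 for the rhoGFP-negative and in 12 for the rhoGFP-positive array. The median over all genes tested was highest there too, at 6.92, 6.92 and 6.97 on rhoGFP-positive and 7.09, 7.17 and 7.28 on rhoGFP-negative arrays. The share of all genes that were highest on the rhoGFP arrays numbered 3 was not counted. Without both of these arrays 13 of the 35 genes were called lower between the rhoGFP fractions and 15 against the nestinGFP-positive cells, and without the 3 arrays numbered 1, whose 18S signal was high, 16 and 15 were. The part of cell cycle state in the Notch differences was not tested.

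Markers of other retinal cells were read the same way. In the rhoGFP-positive cells 5 of 8 neurogenic genes were lower than in the rhoGFP-negative cells, as were 4 of 8 Müller glia genes with 1 higher, and against the nestinGFP-positive cells 4 neurogenic genes were lower and 2 higher. Of 3 astrocyte genes 1 was lower in both comparisons. Of 7 microglia genes none was called between the rhoGFP fractions and 1 was higher than in the nestinGFP-positive cells. The part of these cell types in the Notch differences was not tested.

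**Figure D4:**
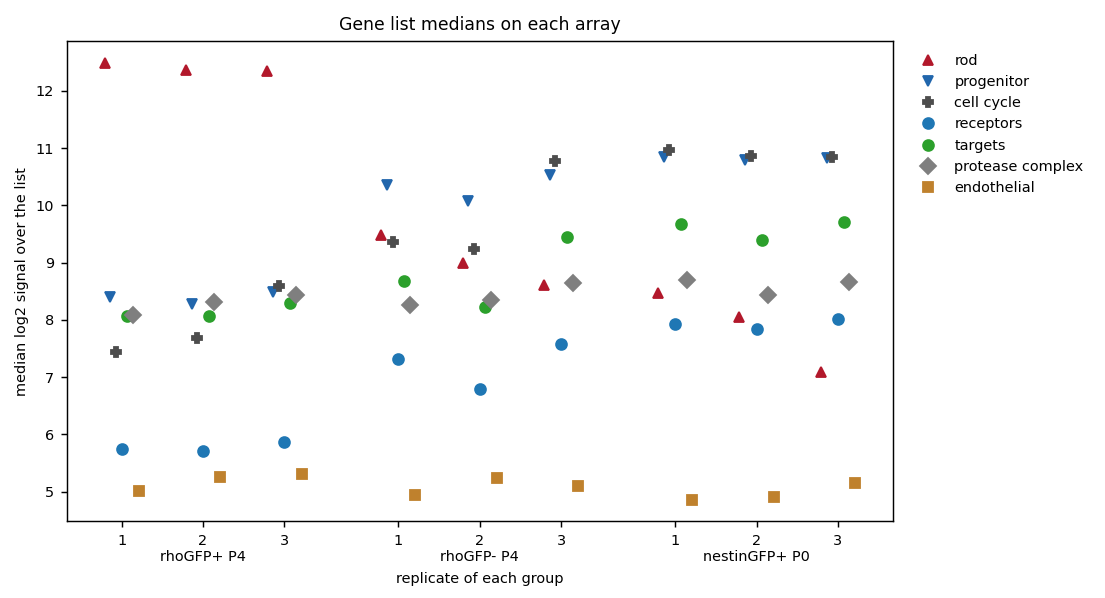
Median log2 signal of 3 role groups of Notch genes (receptors, targets, protease complex) and of 4 marker lists on each of the 9 arrays; points are arrays, lists are offset sideways for legibility, and levels should be compared within a list and not between lists. The receptor median is lowest on the 3 rhoGFP-positive arrays, as are those of the progenitor and cell cycle lists, the target median of rhoGFP-positive replicate 3 lies just above that of rhoGFP-negative replicate 2, the rod list is highest there, and the protease complex and endothelial medians stay within 1 unit over all arrays.

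Beyond the 36 genes, 55 further genes of the pathway were measured. Between the rhoGFP fractions 2 were higher and 6 lower, with a median of -0.06, which is 14.5% of them against 10.9% of all genes tested. Against the nestinGFP-positive cells 3 were higher and 10 lower (median -0.03), 23.6% against 15.6% of all genes, and none was called in the third comparison. The corepressors of the Tle (Groucho) family, which Hes proteins recruit, went both ways. Tle2 was at 9.46, 10.56 and 10.60 on the rhoGFP-positive, 7.69, 8.10 and 7.79 on the rhoGFP-negative and 7.10, 7.57 and 7.63 on the nestinGFP-positive arrays. All rhoGFP-positive values were above the rest, and Tle2 was 5.08-fold higher than in the rhoGFP-negative cells (2.35 ± 0.29, adjusted p = 0.000273). Tle3 was at 7.80, 7.98 and 8.40, 10.01, 10.29 and 10.45 and 10.03, 10.08 and 10.18, the reverse pattern, and was 4.56-fold lower (-2.19 ± 0.17, adjusted p = 1.61e-05), with all 4 of its probe sets called lower. Tle4 was lower than in the nestinGFP-positive cells (-1.59 ± 0.17) and not called against the rhoGFP-negative cells (-0.82 ± 0.17). Its dimmer probe sets gave -0.45 and -0.95 against the nestinGFP-positive cells and 0.20 and -0.43 between the rhoGFP fractions, without a call. Tle1 (-1.31 between the rhoGFP fractions, called lower) and Tle5 (0.27, not called) are named after their values were seen, to complete the family.

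**Figure D5:**
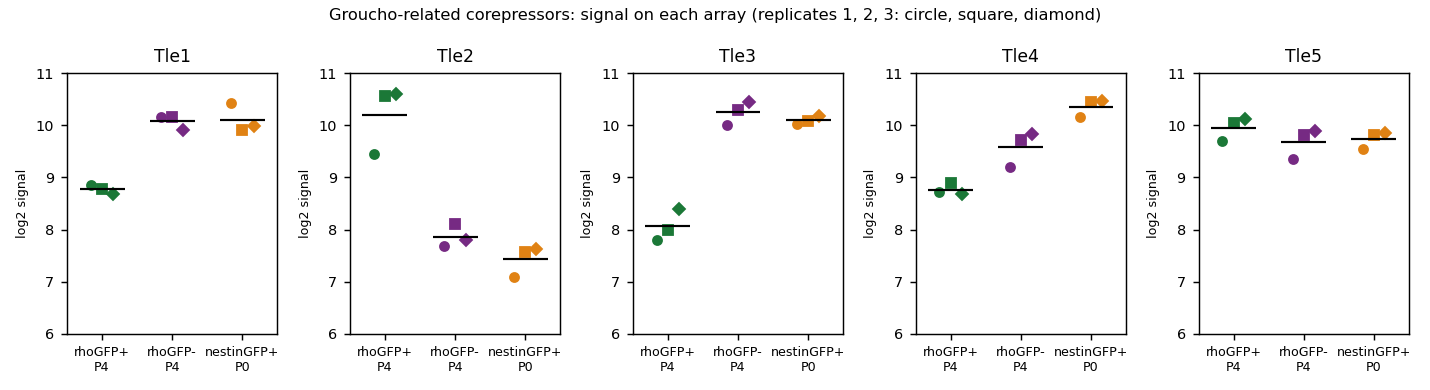
RMA log2 signal of the 5 Tle corepressor genes on each of the 9 arrays, with bars for group means and symbols for replicate numbers; the vertical axis is the same in all panels and does not start at 0. Tle2 lies highest on the rhoGFP-positive arrays, Tle1, Tle3 and Tle4 lowest, and Tle5 overlaps between the groups.

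Others called were ligands and regulators outside the main list. Dner, a Notch ligand without a DSL domain, was at 8.16, 8.62 and 8.33 in rhoGFP-positive, 9.84, 10.39 and 9.93 in rhoGFP-negative and 10.08, 10.38 and 9.77 in nestinGFP-positive replicates, and was 3.22-fold lower than in the rhoGFP-negative cells (-1.69 ± 0.20). Fbxw7, part of the ligase that marks the cut receptor for breakdown, was 3.12-fold lower (-1.64 ± 0.18, adjusted p = 0.000152), in both of its probe sets. Bhlhe41, a repressor related to the Hes family, was higher than in the rhoGFP-negative and nestinGFP-positive cells (1.65 and 2.11), with low signals in both of those groups, and its second probe set was not called. Cntn6, a contactin reported to bind Notch, was lower (-2.03 and -2.76), at a low signal of 3.93 to 4.61 in the rhoGFP-positive cells. Neurl1b, a ligase that acts on ligands, was lower than in the nestinGFP-positive cells (-1.49 ± 0.31) and not called against the rhoGFP-negative cells (-0.99 ± 0.31).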

How the data were processed

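RNA from 9 pooled samples was hybridised to Affymetrix arrays, from 200 ng of total RNA per the labels' protocols. The log2 values are those the authors deposited, and the submitters' processing notes name RMA as the method, without a version. It compresses low signals, and the table has no detection calls. Of 45101 probe sets, 64 were controls, 34945 carried 1 gene symbol, 932 several and 9160 none; 34754 symbols were looked up by Entrez ID, and only probe sets with 1 symbol were used.

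A linear model with 3 group means was fitted to all 9 arrays with limma 3.58.1 (R 4.3.3; lmFit, then eBayes; two-sided tests), and p values were adjusted by Benjamini-Hochberg over 18193 genes. Calls needed an adjusted p under 0.05 and a log2 difference of 1 or more in size. For every probe set of a gene the fit ran over all probe sets with 1 symbol. Intervals are 95% intervals of a difference. Figures were drawn with matplotlib 3.10.9. Data were simulated for the comparison of the rhoGFP fractions (18193 genes, 10 runs), with 200 genes changed per run. Of those with a log2 change of 1.5 in size 97.7% were recovered, and of those with 2 99.1%, with 2.2 false calls per run. The simulated noise was normal and independent for each gene and array. These rates therefore do not cover differences near 1 or deviations that arrays share.

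The genes, the lists (rod, progenitor, cell cycle, neurogenic, Müller glia, endothelial, mural, astrocyte and microglia markers and other pathway genes) and the tests were chosen with earlier results of these data known. Every Notch gene is named whatever its result, with all arrays where it was called, and every probe set where probe sets disagree in call; of the other pathway genes the 8 with the largest called difference; and the markers Nrl, Nes, Cdh5 and Pecam1; 1 further marker is not reported here.

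The labels call the replicates biological, without saying whether a number marks a shared pool or day. Deviations from the group means correlated at 0.62, 0.45 and 0.45 between same-numbered arrays of the rhoGFP fractions, at 0.54, 0.15 and 0.23 between rhoGFP-negative and nestinGFP-positive arrays and at 0.52, -0.01 and 0.25 between rhoGFP-positive and nestinGFP-positive arrays. By the rule that every pair exceed 0.1, the numbers pair the arrays in the first and second of these, as read from the values, since the design does not say so. Unlike-numbered arrays of the rhoGFP fractions correlated at -0.49 to 0.07. However, rhoGFP-negative replicate 2 and nestinGFP-positive replicate 3 correlated at 0.22, above the 0.15 of the pair numbered 2. The values thus do not single out the number as the pairing of rhoGFP-negative with nestinGFP-positive arrays. Alternatives were a common median, repeated quantile normalization, cyclic loess, the mean over a gene's probe sets, omission of _x_at and _s_at probe sets or of dim genes (mean signal under the 40th percentile), a fit of only the 6 arrays compared, the replicate block, a trended robust eBayes, other thresholds, and omission of each array in turn; 2 more, leaving out the rhoGFP arrays numbered 3 and the 3 arrays numbered 1, were chosen after seeing the data.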

Additional observations from a re-analysis of the deposited data

How the results depend on the processing

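Over 22 alternatives to the settings used, 2255 of 2304 differences of single genes kept their side of the threshold. No difference that was called in either fit changed its direction. Changes of sign in differences called in neither fit were not counted. Genes called lower between the rhoGFP fractions numbered 17, and 13 with the mean of probe sets, 18 with no minimum difference, and 13 to 17 leaving out each array in turn; Jag1 remained the 1 gene called higher under every alternative. Against the nestinGFP-positive cells 16 were lower, from 15 to 18 over all alternatives and 15 to 16 leaving out arrays, and the 1 higher gene became 3 with no minimum difference (Mib1 and Psen2 added). The 1 gene higher in the rhoGFP-negative than in the nestinGFP-positive cells, Dlk1, became 0 with the mean of all probe sets, without _x_at and _s_at probe sets, with only the 6 arrays compared and at an adjusted p below 0.01, and ranged from 0 to 1 leaving out arrays. The count of 0 lower there became 1, Hes1, without both rhoGFP arrays numbered 3 (-1.14), and ranged from 0 to 1 leaving out arrays.

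With the replicate number as a block, which pairs the arrays, 17 genes were lower and 1 higher between the rhoGFP fractions, 16 and 1 against the nestinGFP-positive cells, and 0 and 1 in the third comparison, so the block changed no call of the 35 genes. Over all genes the block moved the calls of the third comparison from 180 to 453. That count was 28 with only the 6 arrays compared, 370 with no minimum difference, 23 at an adjusted p below 0.01 and 19 to 559 leaving out arrays. With no minimum difference the 1988 and 2838 calls of the other comparisons became 4417 and 6508.

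Signal near the lower end of the arrays limits Notch2, Notch3 and Notch4 in the rhoGFP-positive cells, Dlk1 outside the rhoGFP-negative cells, and Hey2 and Maml2 throughout. With 3 replicates a group, calls at differences near 1 (Dll4, Mfng, Notch4) moved across the minimum with single arrays.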

Other observations

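Differences between arrays of the same replicate number were narrow for some Notch genes and wide for others. For Hes5, rhoGFP-positive minus rhoGFP-negative, they were -2.53, -2.44 and -2.45 in the pairs numbered 1 to 3, and for Dll3 -2.32, -2.45 and -2.40. Nrarp gave -1.62, -1.72 and -1.84, Dtx4 -1.64, -1.72 and -1.78 and Notch1 -1.40, -1.17 and -1.30. Hes1 gave -2.20, -1.78 and -2.73, Jag1 2.75, 1.80 and 1.60, and Dlk1 -1.69, -2.11 and -1.15. The rhoGFP-positive and rhoGFP-negative arrays of these genes did not overlap, so any pairing of them gives 1 direction.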
